A study of Macaca mulatta with 6 samples.

Results

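The liver X receptors (LXRs) and the proteins they work with were followed in luteal cells of rhesus macaques through 7 genes. These were NR1H3 (LXR alpha), NR1H2 (LXR beta), their partners RXRA and RXRB, the corepressor NCOR1, and the coactivators NCOA2 and NCOA3. Every probe set whose gene symbol is 1 of these 7 was taken, which gave 19 probe sets. The 7 genes are among 14132 genes named on the array, and the 19 probe sets among 52766 tested. Cells dispersed from the corpus luteum 12 days after the surge of luteinizing hormone were plated on fibronectin without serum. From plating on they were exposed for 24 h either to T0901317 at 1 µM, a synthetic LXR agonist, or to 0.1% dimethyl sulfoxide (DMSO), its vehicle. There were 3 arrays with T0901317 and 3 with DMSO, and the series' design text pairs them by replicate number. Nothing in the labels names the animals behind the replicates, so p-values concern the spread between these cultures. The test used, limma, also draws the variance of each probe set towards that of other probe sets of like level.

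LXRs are nuclear receptors that bind oxidised forms of cholesterol. They sit on DNA as a dimer with a retinoid X receptor (RXR). Without ligand the dimer holds a corepressor complex built around NCOR1 and the histone deacetylase HDAC3, and ligand exchanges this for coactivators of the NCOA family, which bring in histone acetyltransferases. Human NR1H3 is itself an LXR target, and the luteal gland uses cholesterol as the substrate for progesterone.

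Values are log2 levels made by the authors with RMA, which removes background, brings the probe values of arrays to 1 distribution and merges the probes of a set. A difference of 1 on this scale is a 2-fold difference. Levels of different probe sets depend on their probes and are not set against each other here. A reference for dim signal, 4.63, was taken from the Bacillus control probe sets, to which these cells give no RNA. The merged values still differed between arrays, with median levels of 5.54 to 5.71. The share of probe sets above the dim reference was 74.1% in T0901317 replicate 3 and 73.5% in DMSO replicate 3. On the other 4 arrays it was 68.8% to 71.0%. Of 11 listed markers of steroid-making luteal cells 6 were measured, and the means of all 6 lay above the dim reference. STAR, which carries cholesterol into mitochondria, had 10.70, 11.45 and 10.58 in T0901317 replicates 1, 2 and 3, against 10.97, 11.48 and 10.54 in the DMSO replicates. In extracts of mixed cells a change in the share of a cell type and a change in RNA per cell cannot be told apart. The difference between the 3' and 5' actin control probe sets, a sign of RNA quality, was 2.45 in T0901317 replicate 3 and 3.50 in DMSO replicate 3. It lay between 1.54 and 2.03 on the other 4 arrays.

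Of the 7 genes NR1H3 alone passed the test, and it rose. Its 1 probe set (MmuSTS.3305.1.S1_at, gene number 713679) had log2 levels of 7.40, 8.70 and 8.71 in T0901317 replicates 1, 2 and 3, against 5.98, 7.68 and 7.42 in DMSO replicates 1, 2 and 3. Each T0901317 array lay above the DMSO array of its own replicate, but the groups overlapped, since T0901317 replicate 1 lay below both DMSO replicate 2 and DMSO replicate 3. The means were 8.27 ± 0.75 with T0901317 and 7.03 ± 0.92 with DMSO (SD, n = 3 each). The paired differences were 1.42, 1.02 and 1.29, with the largest in the pair whose DMSO level was lowest. The mean change was 1.24 ± 0.11 in log2 units (SE from limma over n = 3 pairs), or 2.36-fold with a 95% interval of 2.00 to 2.80. The adjusted p was 0.0011 in limma with the replicate number as a block.

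The call of NR1H3 rests on the pairing. Without the replicate block the same change of 1.24 had an SE of 0.53, an unadjusted p of 0.052 and an adjusted p of 1.00 in limma. With the block and any 1 pair left out, the change was 1.15 to 1.35 and passed each time. With a pair left out the fit leans on the variance shared with other probe sets, so these passes are no measure of stability. Without replicate 3 the limma adjusted p of NR1H3 was 3.5e-16, against 0.0011 with all pairs. Calls over all probe sets rose there from 45 to 328. NR1H3 passed in 11 of 12 alternative fits. Among these, the fit with an RNA quality covariate beside the block leans on the shared variance likewise. The size of its change could not move without the block or the variance trend. Nor could it with dim probe sets left out, or with the mean over a gene's probe sets, since NR1H3 has 1 probe set. By size it ranked 7 among the 16 named genes called higher, and by p it ranked 8 among all probe sets.

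**Figure D1:**
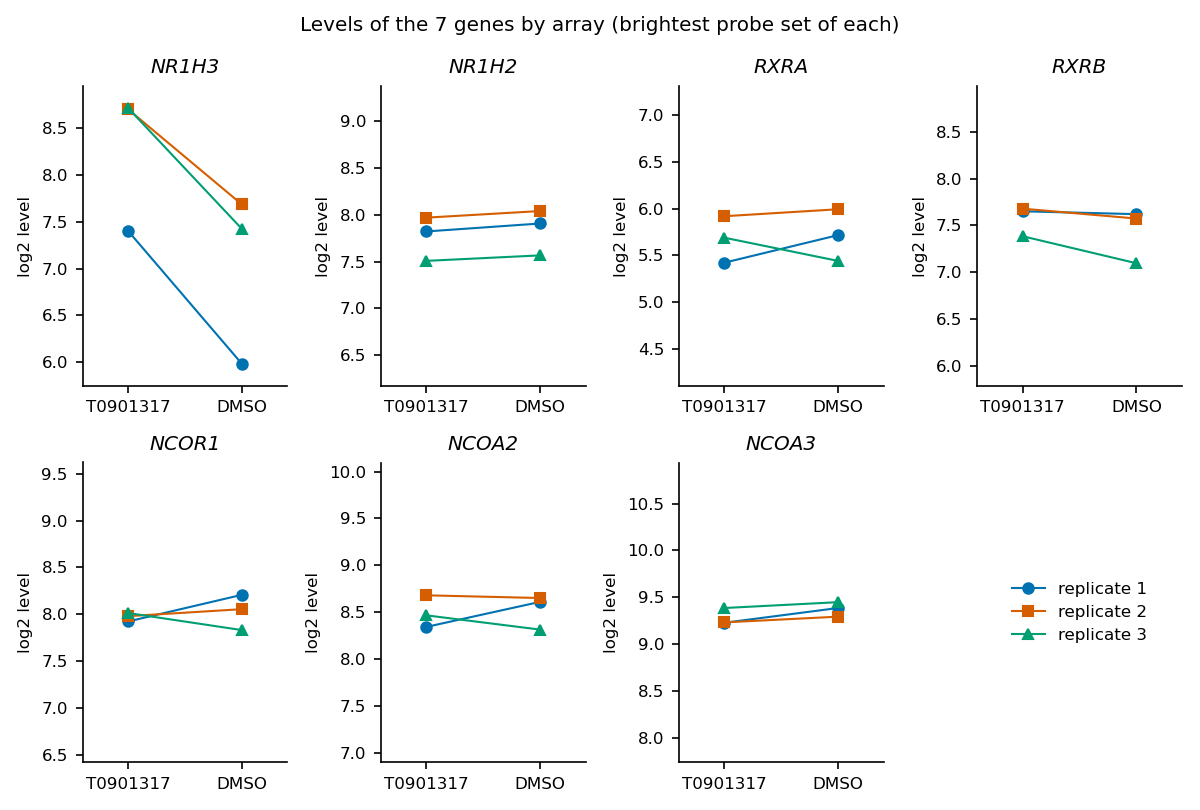
Log2 level (vertical axis) of the brightest probe set of each of the 7 genes in T0901317 and DMSO cultures (horizontal axis), with a line joining the arrays of 1 replicate. Each panel spans the same number of log2 units but has its own position, and the 3 lines of NR1H3 run 1.02 to 1.42 higher at T0901317, while those of the other 6 genes stay within 0.29 of level.

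NR1H2, the other LXR gene, did not pass the test. Its 1 probe set (MmugDNA.24206.1.S1_at, gene number 719210) had 7.82, 7.97 and 7.51 in T0901317 replicates 1, 2 and 3, and 7.91, 8.04 and 7.57 in DMSO replicates 1, 2 and 3. The arrays of a pair lay close together, with replicate 3 the lowest in both groups. The paired differences were -0.085, -0.071 and -0.059, and the mean change was -0.07 ± 0.10 (limma's SE; 95% interval -0.29 to 0.14; limma adjusted p = 1.00). The SD of the paired differences of NR1H2 was 0.013, so limma's SE came largely from the variance shared with other probe sets. NR1H3 changed more than NR1H2 in every pair, by 1.50, 1.09 and 1.35, a mean of 1.31 ± 0.21 (SD, n = 3 pairs). An exact two-sided sign-flip test of this difference gave p = 0.25, the smallest that 3 pairs allow. Levels of NR1H3 also ranged more widely among replicates than those of NR1H2. The highest and lowest arrays differed by 1.31 for NR1H3 and 0.46 for NR1H2 with T0901317, and by 1.70 for NR1H3 and 0.47 for NR1H2 with DMSO.

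RXR genes did not pass either. RXRA, the main RXR subtype of liver, was read by 1 probe set (MmugDNA.9423.1.S1_at, gene number 722068). It had 5.42, 5.92 and 5.69 in the T0901317 replicates, against 5.72, 5.99 and 5.44 in the DMSO replicates. Its pairs disagreed in direction, with differences of -0.29, -0.07 and 0.25, and the mean change was -0.04 ± 0.14 (limma adjusted p = 1.00). RXRB, a widely expressed RXR subtype, was read by 2 probe sets (gene number 717368). On the brighter, MmuSTS.3796.1.S1_at, it had 7.65, 7.68 and 7.38 with T0901317, against 7.62, 7.57 and 7.10 with DMSO. All 3 pairs lay above 0, by 0.03, 0.11 and 0.29, yet the mean change of 0.14 ± 0.11 did not pass (95% interval -0.09 to 0.37; limma adjusted p = 1.00). The dimmer RXRB probe set, MmugDNA.8631.1.S1_at, had -0.04, -0.02 and 0.10 in the pairs.

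NCOR1, the scaffold of the corepressor complex, was read by 5 probe sets (gene number 696351). The brightest, MmugDNA.8091.1.S1_at, had 7.92, 7.98 and 8.01 in T0901317 replicates 1, 2 and 3, against 8.21, 8.05 and 7.83 in DMSO replicates 1, 2 and 3. The T0901317 arrays lay inside the range of the DMSO arrays. The paired differences of -0.28, -0.07 and 0.18 averaged -0.06 ± 0.11 (limma's SE). Over all 5 NCOR1 probe sets the mean changes ran from -0.13 to 0.11, with 2 below 0 and 3 above. The one at 0.11, MmugDNA.19946.1.S1_at, lay below the dim reference on all 6 arrays.

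NCOA2, a coactivator of the steroid receptor coactivator family, was read by 3 probe sets (gene number 693455). Its brightest, MmugDNA.39363.1.S1_at, had 8.34, 8.68 and 8.47 with T0901317, against 8.61, 8.65 and 8.31 with DMSO. The differences of -0.27, 0.03 and 0.15 crossed 0 and averaged -0.03 ± 0.10 (limma's SE). A second, MmuSTS.1003.1.S1_at, ran the other way over the pairs, with 0.34, 0.07 and -0.20. Its mean of 4.81 was near the dim reference, and the third, MmugDNA.14872.1.S1_at, lay below it on all 6 arrays, with a mean of 3.24.

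NCOA3, a coactivator of the same family, had the most probe sets, 6 (gene number 705431). On the brightest, MmugDNA.32690.1.S1_at, it had 9.23, 9.23 and 9.39 in the T0901317 replicates, against 9.39, 9.29 and 9.45 in the DMSO replicates. All 3 pairs lay below 0, by -0.16, -0.06 and -0.06, and the groups overlapped. The mean change was -0.09 ± 0.08 (95% interval -0.28 to 0.09; limma adjusted p = 1.00). The other 5 NCOA3 probe sets had mean changes of -0.13 to 0.02 and mixed signs over the pairs. Their levels also disagreed on which DMSO culture was low. Against the mean of DMSO replicates 1 and 2, DMSO replicate 3 was 0.74 below on MmuSTS.1945.1.S1_at but 0.25 above on MmugDNA.23067.1.S1_at.

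Across the 19 probe sets 1 was called higher and 0 lower, against 0.0606% higher, 0.0246% lower and 0.0853% in either direction of all 52766 (limma, adjusted p under 0.05). Of the 45 calls over all probe sets, 32 were higher and 13 lower. At an unadjusted p under 0.05 there was again 1, NR1H3, of 19, and 3.72% of all probe sets. None of the 19 had T0901317 and DMSO values that did not overlap, against 2.45% of all. The same sign in all 3 pairs was found for 4 of 19, or 21.1%, against 23.2% of all, so this share lay near the background. The 4 were NR1H3 and a probe set of RXRB, higher, and NR1H2 and a probe set of NCOA3, lower.

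For the 18 probe sets other than NR1H3 the mean changes ran from -0.13 to 0.14 with a median of -0.03, against a median of 0.0044 over all probe sets. The smallest unadjusted p among them was 0.21. Their 95% intervals lay between -0.44 and 0.38, so that for each a fall of more than 1.36-fold or a rise of more than 1.30-fold lay outside its interval. For 15 of the 18 the SD over the DMSO arrays was larger than the change. That SD holds the differences between replicates, so it is not the spread that the paired test uses. In 12 of the 18 the sign of the change turned under at least 1 alternative, and 0 of the 18 passed under any. In simulated data for this comparison the fit recovered all 67 probe sets changed by 1 on the log2 scale but 24 of 67 (35.8%) changed by 0.5, so small changes could be missed. Of 171 calls there, 14 or 8.19% were false. The simulated noise was normal and independent, with the variances of the fit, and the real data gave 45 calls. Recovery in the real data may thus be lower.

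**Figure D2:**
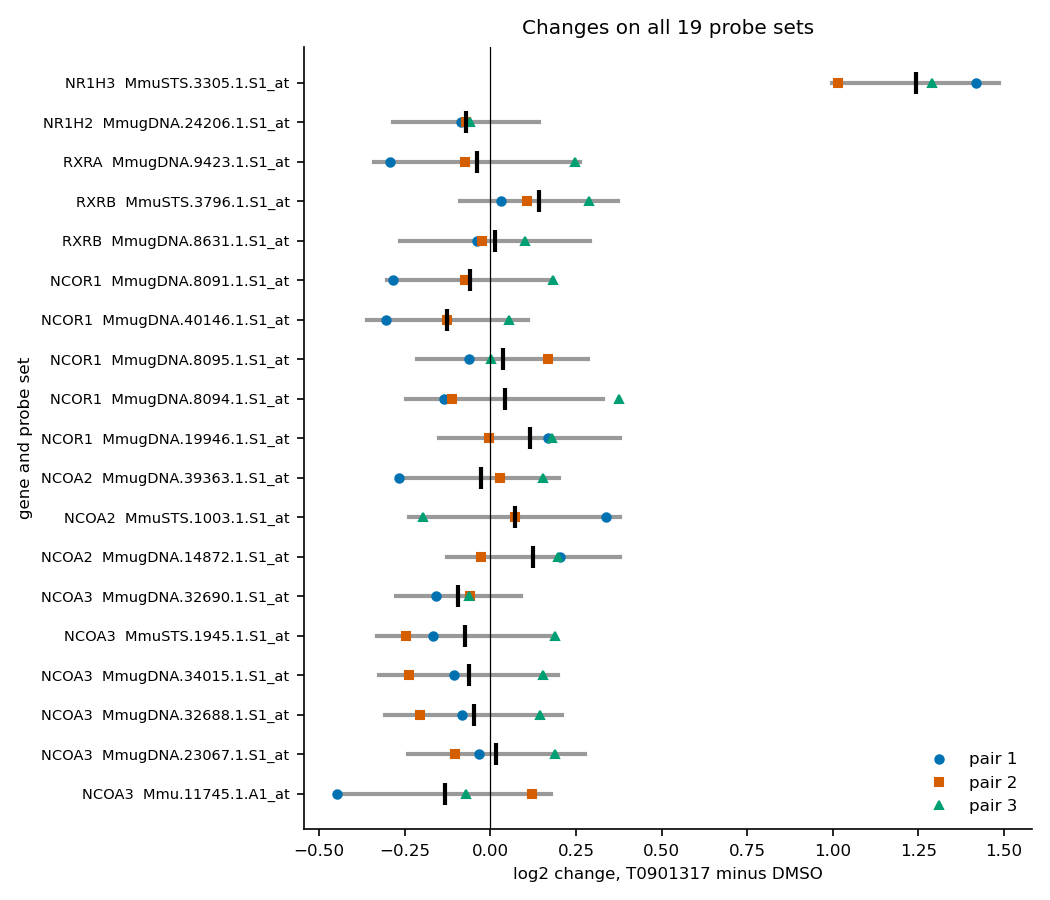
Log2 change, T0901317 minus DMSO (horizontal axis), on each of the 19 probe sets (vertical axis). Coloured symbols are the 3 pairs, black ticks the means and grey bars limma's 95% intervals, and the interval of NR1H3, 1.00 to 1.48, is the only one that does not cross 0.

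The direction of the 18 differed by pair. In pair 1, 4 of 18 lay above 0 (22.2%, against 49.7% of all probe sets), in pair 2, 5 (27.8%, against 47.0%), and in pair 3, 14 (77.8%, against 53.4%). Of the 16 above the dim reference, 2, 5 and 12 lay above 0 in pairs 1, 2 and 3. Among all probe sets above that reference the shares were 42.6%, 47.2% and 52.8%. The 18 are not independent, since NCOR1 gave 5 of them and NCOA3 6. The medians of the 18 were -0.10, -0.07 and 0.15. Of the 18, 5 had their lowest T0901317 value in replicate 3 and 11 their lowest DMSO value in replicate 3, while over all probe sets the shares were 28.8% with T0901317 and 31.9% with DMSO. The RNA quality control moved between the same pairs. Averaged over actin, GAPDH and EF1a, the 3' minus 5' difference was 0.16 higher with T0901317 in pair 1, while it dropped by 0.077 in pair 2 and dropped by 0.59 in pair 3. In the blocked fit with this control added as a covariate, 5 of the 18 lay above 0, the median was -0.09, the lowest unadjusted p was 0.046 and 0 passed in limma. With this added term that fit, too, leans on the variance shared with other probe sets. Without replicate 3, 5 of the 18 lay above 0 with a median of -0.11, and without replicate 1, 11 did with a median of 0.04. The part of RNA quality in these values was not tested further.

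**Figure D3:**
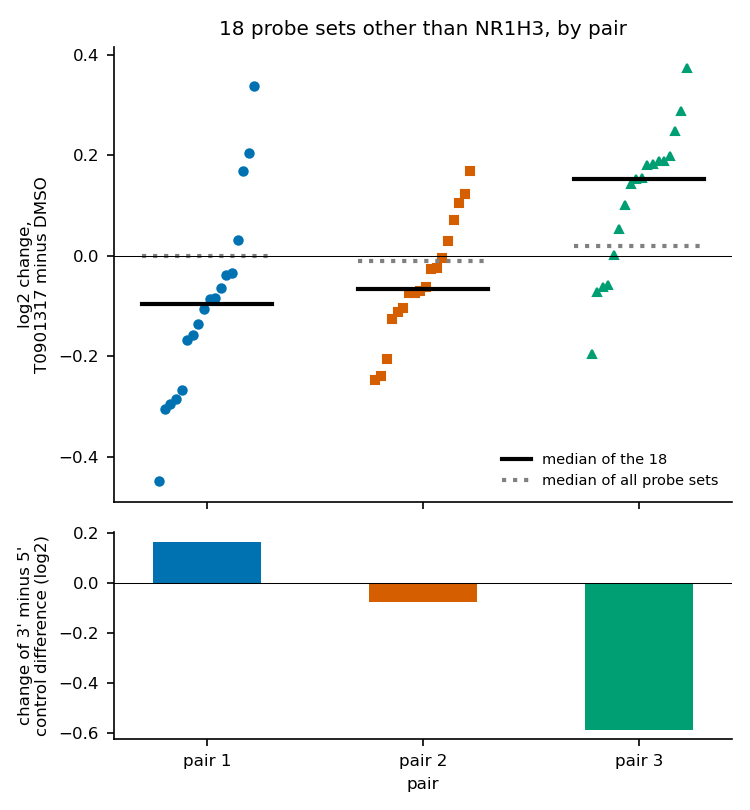
The upper panel gives the log2 change, T0901317 minus DMSO (vertical axis), of the 18 probe sets other than NR1H3 in each pair (horizontal axis), with their median as a black line and that of all probe sets dotted. The lower panel gives the change in the 3' minus 5' difference averaged over actin, GAPDH and EF1a. Most points lie below 0 in pairs 1 and 2, and 14 of 18 lie above 0 in pair 3, where the RNA quality control moved by -0.59.

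The level of NR1H3 differed between replicates, and so did markers of macrophages and of other blood-derived cells. Macrophages express NR1H3 and are found in the corpus luteum. DMSO replicates 2 and 3 lay 1.70 and 1.44 above DMSO replicate 1 for NR1H3. Of 11 measured macrophage markers, 10 were likewise higher in DMSO replicates 2 and 3 than in replicate 1, as were 30.4% of all named genes. CD14, a coreceptor for bacterial lipopolysaccharide, had 9.99, 11.63 and 11.58 with T0901317, against 10.02, 11.83 and 11.39 with DMSO. C1QB, a chain of complement C1q, had 7.03, 8.80 and 8.93 with T0901317, against 7.09, 8.81 and 8.84 with DMSO. Markers of T and NK cells had medians of 7.02, 7.84 and 8.78 over T0901317 replicates 1, 2 and 3, against 7.15, 7.81 and 8.96 over the DMSO replicates, and those of blood cells and neutrophils 5.27, 5.72 and 6.23, against 5.41, 5.79 and 6.51. By these medians replicate 1 was the lowest, but single markers differed. Of the T and NK markers only NKG7 was lowest in replicate 1 in both groups. GNLY was lowest in replicate 2 (9.14 with T0901317 and 9.29 with DMSO). CD7, with a mean below the dim reference, was lowest in replicate 3 (3.83 with T0901317 and 4.04 with DMSO). Among the blood cell markers PF4 and CSF3R were lowest in replicate 2 with DMSO. The exception among macrophage markers was MRC1, the mannose receptor, with 9.71, 9.94 and 9.24 with T0901317, against 9.88, 9.75 and 9.31 with DMSO. None of the other 6 genes was higher in both DMSO replicates 2 and 3 than in replicate 1 on its brightest probe set. Of their 18 probe sets 5 were, among them MmugDNA.23067.1.S1_at and MmugDNA.32688.1.S1_at of NCOA3 and MmuSTS.1003.1.S1_at of NCOA2, and 2 of the 5 lay below the dim reference.

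No macrophage marker passed the test of treatment. Over the 11 the median change was -0.01, with -0.02, -0.01 and 0.09 in pairs 1, 2 and 3, when NR1H3 changed by 1.42, 1.02 and 1.29. The median marker level was 7.03 to 8.39 over the T0901317 arrays and 7.09 to 8.03 over the DMSO arrays. The largest marker change was that of TYROBP, a signalling adaptor of myeloid cells, at -0.29 ± 0.08 (limma adjusted p = 0.66). Endothelial markers had a median change of 0.22, with 7 of 8 above 0, and pericyte and smooth muscle markers one of -0.24, with 4 of 4 below 0. Medians were -0.07 for 6 fibroblast markers, -0.19 for 3 of T and NK cells and -0.25 for 6 of blood cells, and -0.12 for the 6 luteal markers. None of these markers passed, where 0.177% of all named genes were called, so this says little of them. The part of cell composition in the change of NR1H3 was not tested.

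**Figure D4:**
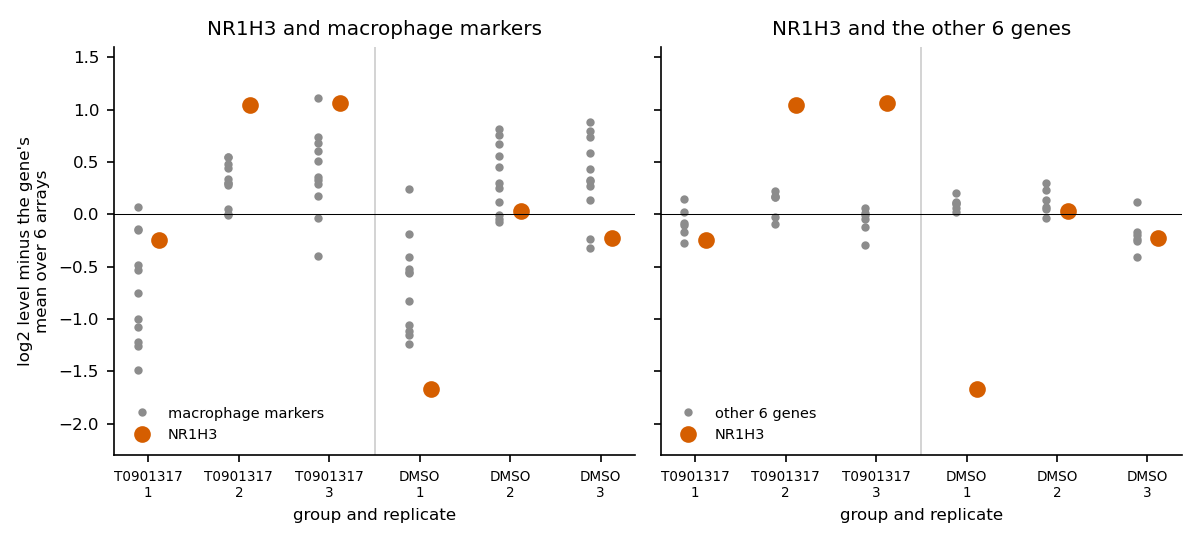
Log2 level minus the gene's own mean over 6 arrays (vertical axis) on each array (horizontal axis, group and replicate). NR1H3 is in orange, with 11 macrophage markers in grey on the left and the brightest probe sets of the other 6 genes in grey on the right. Replicate 1 is low in both groups for NR1H3 and for most macrophage markers, and T0901317 arrays of NR1H3 lie above their DMSO partners while the grey points do not shift alike.

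Other genes for proteins of the receptor complex gave no calls. Of 21 further RXR and coregulator genes listed, 15 were measured under a name, and 0 rose and 0 fell. Among all named genes 0.177% were called in either direction, so a count of 0 among 15 says little of these genes. The median change of the 15 was 0.03, with 9 above 0 and 6 below, against -0.02 for all named genes. EP300, a histone acetyltransferase recruited by NCOA proteins, had the largest change, -0.13 ± 0.09 (limma adjusted p = 1.00). NR0B2, a corepressor that lacks a DNA-binding domain, had 0.10 ± 0.13 and lay below 0 in 1 of 3 pairs. Of the NCOR1 complex, HDAC3 had 0.03 ± 0.10 and TBL1X, a subunit that exchanges corepressors for coactivators, -0.08 ± 0.09. GPS2, another subunit, had 0.07 ± 0.12 and lay below the dim reference. CREBBP, an acetyltransferase related to EP300, had -0.04 ± 0.09, MED1, the Mediator subunit that contacts nuclear receptors, -0.05 ± 0.09, and NRIP1, a corepressor of nuclear receptors, 0.04 ± 0.08. RXRG and NCOA1 were among the 6 not analysed here.

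On the ligand side, 4 of 10 listed genes that make or break down oxysterols were measured, and 0 passed. With 0.177% of all named genes called, a count of 0 among 4 says little of these genes. CH25H, which makes an oxysterol that binds LXR, had 8.93, 7.16 and 6.46 in the T0901317 replicates, against 9.09, 7.02 and 6.85 in the DMSO replicates. Replicate 1, the lowest for NR1H3, was the highest for CH25H in both groups. The paired change of CH25H was -0.14 ± 0.12 (limma adjusted p = 1.00). CYP3A4, a broad oxidase that can hydroxylate cholesterol, had -0.07 ± 0.12.

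Some known LXR targets rose as well. Of 26 listed besides NR1H3, 19 were measured, of which 9 rose, 0 fell and 10 did not pass. Among all named genes 0.177% were called in either direction. The median change of the 19 listed targets was 0.47. This list was drawn up with earlier results of these data known, so its direction is not independent evidence. The 9 were MYLIP (2.39), SREBF1 (1.49), TMEM135 (1.35), LPCAT3 (1.07), APOC4 (1.02), ACACA (0.84), FASN (0.63), APOE (0.60) and RNF145 (0.47), given as log2 changes. The change of NR1H3, 1.24, lay within their range. MYLIP, a ubiquitin ligase for lipoprotein receptors, had 9.99, 10.05 and 10.68 with T0901317, against 7.50, 8.01 and 8.03 with DMSO, and unlike NR1H3 its groups did not overlap. The largest changes that did not pass were 0.47 ± 0.13 for ABCA1, a cholesterol exporter, and -0.26 ± 0.12 for ABCA7, a related transporter (limma adjusted p = 0.88 and 1.00). The count of 9 was 5 without replicate 1, 2 without the variance trend and 0 without the replicate block. With the mean of a gene's probe sets in place of the brightest it was 7. The change of ACACA was then 0.51 and that of RNF145 0.22, and both lost their call (limma adjusted p = 0.22 and 1.00). SREBF1 had 0.92 there and kept its call (limma adjusted p = 0.0084). RNF145 passed in 5 of 12 alternatives, FASN and APOC4 in 7 each, and MYLIP and LPCAT3 in 11 each.

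Genes with a pattern near that of NR1H3 were sought among 11385 named genes above the dim reference. By the root mean square distance of the 3 paired differences, the nearest were LPCAT3 (0.21), APOC4 (0.32), PPIP5K2 (0.33), SREBF1 (0.39) and CP (0.43). LPCAT3, an enzyme that remodels membrane phospholipids, had differences of 1.10, 0.98 and 1.12. Since these genes were chosen by their paired differences, the likeness of those differences is no finding. The mean over a gene's probe sets was 0.46 for PPIP5K2, 0.92 for SREBF1 and 0.79 for CP, against 1.14, 1.49 and 0.96 on the brightest, and the calls of PPIP5K2 and CP were lost there (limma adjusted p = 0.36 and 0.078). As a description over 6 arrays that share 3 pairs, the highest Pearson correlations with NR1H3 were those of CP (r = 0.97), CFP (0.96), HOXA3 (0.96), OPTC (0.96) and PRSS58 (0.95). CP encodes the copper-binding plasma protein ceruloplasmin and CFP the complement protein properdin. CFP had a change of 0.86 ± 0.14 (limma adjusted p = 0.054), which passed in 6 of 12 alternatives. HOXA3, OPTC and PRSS58 had changes of 0.20, 0.13 and 0.12 and did not pass. Their DMSO arrays spanned 0.24, 0.22 and 0.26, against 1.70 for NR1H3, and a correlation takes no account of such sizes. The mean of PRSS58, 4.76, was near the dim reference of 4.63. Among the other 6 genes, correlations with NR1H3 ran from -0.46 for NCOR1 to 0.27 for RXRA.

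**Figure D5:**
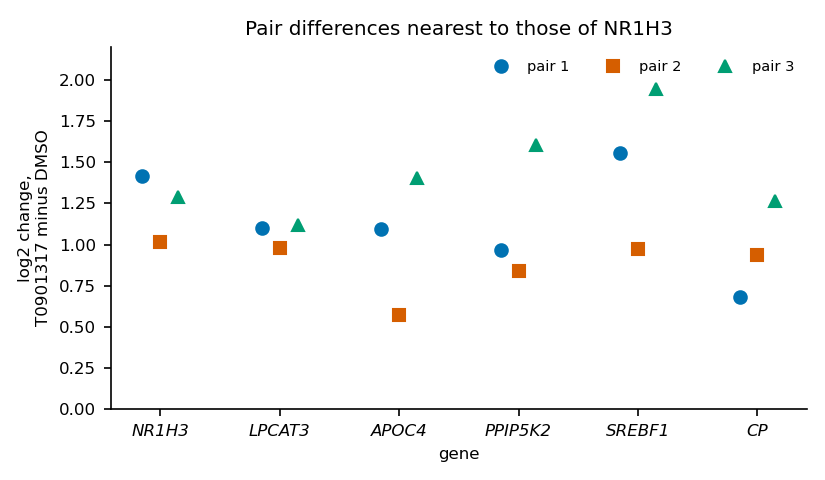
Log2 change, T0901317 minus DMSO (vertical axis), in each pair (symbols) for NR1H3 and for the 5 genes whose paired differences lay nearest to it (horizontal axis). All points lie between 0.57 and 1.94. The genes were chosen for these differences, so that the points lie near those of NR1H3 by construction.

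None of 4 measured neighbours of NR1H3 on its chromosome passed the test, where 0.177% of all named genes were called, so this count says little of them. In the RefSeq gene order of assembly T2T-MMU8v2.0, MADD and MYBPC3 lie on one side and DDB2 and PACSIN3 on the other, within 3 protein-coding genes. Their changes were -0.07 ± 0.11 for MADD, 0.06 ± 0.13 for MYBPC3, 0.07 ± 0.14 for DDB2 and 0.09 ± 0.10 for PACSIN3 (limma adjusted p = 1.00 for each). SPI1 and ACP2, also within that span, were not analysed here.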

How the data were processed

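Log2 values for 52865 probe sets on 6 arrays were deposited. The authors made them with RMA, per the submitters' processing notes; its version, and whether the arrays were processed together, are not given in the sources used here. In all, 99 control probe sets were left out. Gene names came from the platform annotation, checked by gene number against the supplied RefSeq table, which changed 0 symbols. For a gene outside the 7, the brightest probe set by mean stands for the gene. T0901317 minus DMSO was fitted over all 52766 probe sets with limma 3.58.1 in R 4.3.3, with a block for replicate number and a variance trend in eBayes. P-values are two-sided, adjusted by Benjamini-Hochberg at 0.05. Arrays with the same number had correlated deviations from their group means (0.66, 0.81 and 0.83), and the pairing comes from the design text.

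The members, lists and tests were chosen with earlier results of these data known. From the lists, genes past the threshold and the 2 largest others are named; HDAC3, TBL1X, GPS2, CREBBP, MED1, NRIP1, and single markers were picked with values in view. Simulated data were used to test the fit. Alternatives were another normalization, filter, variance model, weighting, covariate or block, the mean of a gene's probe sets, and each pair left out. The number of arrays limits the precision. No coordinates or sequences are given, and no batch could be tested.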

Additional observations from a re-analysis of the deposited data

How the results depend on the processing

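The rise of NR1H3 kept its direction in 12 of 12 alternatives and its call in 11. The exception was the unpaired fit, which has the same change of 1.24 with an adjusted p of 1.00 in limma; it leaves the differences between replicates in the residual spread. The change could not move from 1.24 without the block or the variance trend. Nor could it with dim probe sets left out or with the mean of a gene's probe sets. Its direction in these was fixed. Leaving out 1 replicate gave 1.15 to 1.35 for NR1H3. The count of called probe sets among the 19 was 1 in 10 of 11 alternatives and 0 without the replicate block. Among the LXR targets other than NR1H3 the count of 9 became 0 without the block and 2 without the variance trend, and ran from 5 to 9 with 1 replicate left out. Over all 52766 probe sets the 45 calls (32 higher, 13 lower) became 0 without the block, 11 without the trend (10 higher, 1 lower), 27 with quantile normalization (22 higher, 5 lower), 27 with cyclic loess (24 higher, 3 lower), 75 with array weights (46 higher, 29 lower) and 206 with the RNA quality covariate beside the block (121 higher, 85 lower). With 1 replicate left out they ran from 35 (without replicate 1; 30 higher, 5 lower) over 72 (without replicate 2; 36 higher, 36 lower) to 328 (without replicate 3; 209 higher, 119 lower). The fits with a replicate left out and the fit with the covariate lean on the variance shared with other probe sets. Why their counts differed so widely was not tested. The counts of 0 for the other coregulators and for the oxysterol genes stayed 0 in 12 of 12 alternatives each. NR1H3 exceeded NR1H2 by 1.22 to 1.43 over its 7 alternatives. Median centring could not change this difference, since it shifts both genes alike on an array. The mean of a gene's probe sets could not either, since each of the genes has 1 probe set.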
